A study of Saccharomyces cerevisiae with 22 samples.

Results

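The share of each gene's reads that lie in the region around its start codon was compared between ribosome footprints and polyA RNA of glucose-grown budding yeast, Saccharomyces cerevisiae. A gene was kept when its reads, start region and downstream region summed, came to 50 or more in each of the 8 glucose libraries, which left 2263 of the 5381 genes listed. The series holds 22 samples of 2 strains, with glucose and 15 min after its removal, and 8 of them entered here: 2 footprint and 2 polyA RNA libraries each of BY4741, a widely used laboratory strain, and of EY0690, labelled as w303. Per the labels, the cultures were in synthetic complete medium at 30 °C and reached an OD600 of 0.3 to 0.4 before harvest, and all cells, the RNA samples included, received 100 ug/ml cycloheximide for 1 min. Footprints are mRNA fragments protected by bound ribosomes during RNase I digestion, here taken from monosomes collected through a sucrose gradient or a sucrose cushion, without a statement of which library had which. PolyA RNA was selected with oligo-dT beads and broken with alkali, so its fragments show how reads fall along the same mRNAs without ribosomes. The strain labels were not checked against a marker gene here, and nothing in the labels says that libraries of 1 group came from separate cultures, so p-values measure the spread between these libraries, which may be technical.

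In yeast, the small ribosomal subunit scans from the 5′ end of the mRNA, and the complete ribosome forms at the start codon before elongation begins. Cycloheximide stops elongation while ribosomes can still load, and piles of footprints near start codons are well known from cells treated with it. No library without cycloheximide was analysed here, so the part of the drug in these values was not tested.

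The coding starts shown here belong to genes at both ends of the comparison, and the letters in capitals are the annotated start codon and the next ATG in the same frame, where the stretch holds it. They are RefSeq sequences of build R64, read 5′ to 3′ along the coding strand. The first 4 genes had the highest footprint enrichment relative to the typical gene among those named by the rule given with the methods, and the next 4 had the lowest. RPS6A and RPL30 are shown spliced, because their first coding exons end after 6 and 3 bases.
SNF2: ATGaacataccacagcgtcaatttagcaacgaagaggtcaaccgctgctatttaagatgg
UBR1: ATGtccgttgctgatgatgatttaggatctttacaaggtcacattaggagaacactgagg
TMN3: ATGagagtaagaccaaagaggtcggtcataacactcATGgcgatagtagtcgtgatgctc
IFH1: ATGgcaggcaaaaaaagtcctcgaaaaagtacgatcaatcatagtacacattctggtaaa
LAP2: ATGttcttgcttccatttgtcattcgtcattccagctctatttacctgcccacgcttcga
HNT1: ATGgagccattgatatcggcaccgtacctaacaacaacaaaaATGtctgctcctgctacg
RPS6A: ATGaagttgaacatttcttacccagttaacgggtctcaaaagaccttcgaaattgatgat
RPL30: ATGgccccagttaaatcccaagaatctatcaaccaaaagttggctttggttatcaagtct

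The next 4 stretches are longer, 126 bases, and were chosen after their values were seen, because very few reads of either kind lay in the start region of these genes. In each, an in-frame ATG follows inside the stretch, at codon 31 in ERG13, 40 in PRT1, 28 in MRP13 and 21 in HTS1.
ERG13: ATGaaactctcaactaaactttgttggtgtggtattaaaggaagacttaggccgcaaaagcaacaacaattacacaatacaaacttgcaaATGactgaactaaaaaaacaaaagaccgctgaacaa
PRT1: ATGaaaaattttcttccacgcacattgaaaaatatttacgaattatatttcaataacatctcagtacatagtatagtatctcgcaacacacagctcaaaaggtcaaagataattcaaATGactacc
MRP13: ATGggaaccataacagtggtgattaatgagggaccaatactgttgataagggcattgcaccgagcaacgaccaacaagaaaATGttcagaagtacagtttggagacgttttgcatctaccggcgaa
HTS1: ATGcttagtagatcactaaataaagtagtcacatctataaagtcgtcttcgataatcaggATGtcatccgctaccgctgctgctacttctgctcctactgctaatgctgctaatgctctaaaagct

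The libraries differed in depth, and this sets the precision of each share. Footprint libraries held 783172 to 8831738 reads over all genes and polyA RNA libraries 1194896 to 7336411, with the EY0690 libraries the shallower ones of each kind. The median number of start-region reads per kept gene was 64 and 65 in the BY4741 footprint libraries, 8 and 9 in those of EY0690, 21 and 24 in BY4741 polyA RNA, and 7 and 5 in EY0690 polyA RNA. Kept genes without a single start-region read numbered 16 to 159 in the footprint libraries and 53 to 360 in polyA RNA. Genes with a lowest library of 50 to 59 reads, just inside the minimum, numbered 299, with a median share of 6.67% in footprints and 1.75% in polyA RNA. Just outside it, at 40 to 49 reads, 389 genes had 6.82% and 1.89%.

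Footprints were concentrated at the start in all 4 libraries. The median start-region share over the kept genes was 11.01% and 4.85% in the BY4741 footprint libraries and 4.86% and 6.54% in those of EY0690. In polyA RNA it was 2.21% and 2.06% in BY4741 and 1.85% and 1.88% in EY0690. Every footprint library therefore lay above every polyA RNA library, and the first BY4741 footprint library stood well above the other footprint libraries. The means of the kinds differed by 4.82 percentage points, with p = 0.0286 in a two-sided exact permutation test, the smallest p that 4 libraries against 4 allow. Within strains the difference was 5.80 points in BY4741 and 3.84 points in EY0690, where 2 libraries against 2 cannot give an exact permutation p below 0.333. Without the first BY4741 footprint library the difference was 3.42 points, and without both BY4741 libraries numbered 2, the pair with the smallest difference, it was 5.49 points. The median share in BY4741 total RNA, which was not selected for polyA tails and has 1 library, was 2.23%, close to the polyA RNA values.

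**Figure D1:**
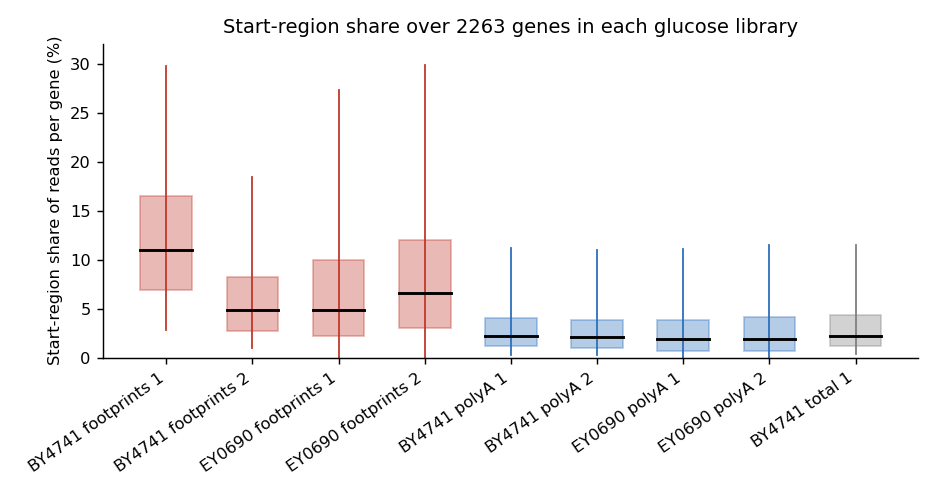
Start-region share of reads per gene, in percent (vertical axis), over the 2263 kept genes in each glucose library (horizontal axis): black line, median; box, quartiles; thin line, 5th to 95th percentile. The medians of the 4 footprint libraries, in red, run from 4.85% to 11.01%, above those of polyA RNA in blue (1.85% to 2.21%) and of total RNA in grey (2.23%).

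Gene by gene, most mRNAs shared in this. The odds of a read lying in the start region were higher in footprints than in polyA RNA for 1834 genes (81%) and lower for 8 genes (0.354%), in edgeR's quasi-likelihood test with an adjusted p under 0.05 and each library's depth and each gene's level taken out. The median log2 odds ratio, called the enrichment from here on, was 1.70 over all kept genes, with quartiles of 1.29 and 2.22. In 1155 genes (51%) the share was higher in all 4 footprint libraries than in all 4 polyA RNA libraries, and in 3 genes (0.133%) it was lower in all 4. Against the mean of the polyA RNA libraries, the median enrichment of single footprint libraries was 2.46 and 1.16 in BY4741 and 1.42 and 1.74 in EY0690, so the spread within BY4741 was larger than the difference between strains. The call of 8 genes with lower odds rests on few libraries and ran from 3 to 16 genes when each library was left out in turn.

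The most abundant member of each functional list was looked at by library. Of these 22 genes, 19 passed as higher in footprints, QCR7, HYP2 and MRPS12 did not (adjusted p = 0.0563, 0.326 and 0.0801, edgeR), and in 15 every footprint share was above every polyA RNA share. In what follows, values of 4 libraries stand in the order of BY4741 libraries 1 and 2, then EY0690 libraries 1 and 2. FBA1, the glycolytic aldolase (YKL060C, chromosome XI, 326408 to 327487 on the minus strand, 1 coding exon), had start-region shares of 14.8%, 9.47%, 6.68% and 13.7% in footprints. In polyA RNA its shares were 2.85%, 2.67%, 2.85% and 3.06%. The groups did not overlap, and the enrichment was 2.03 ± 0.36 (log2 ± SE, adjusted p = 6.1e-06, edgeR). RPL10, a protein of the large ribosomal subunit, had 13%, 8.72%, 8.41% and 18.5% in footprints. Its polyA RNA held 4.34%, 4.65%, 3.07% and 3.902%, again without overlap, for an enrichment of 1.67 ± 0.38. CCW12, a cell wall mannoprotein, had 29.7%, 40.1%, 16.5% and 25.3% against 11.9%, 13.9%, 9.06% and 15.1%. Its lowest footprint library was above its highest polyA RNA library, and the enrichment was 1.41 ± 0.37. PMA1, the plasma membrane proton pump, had 4.99%, 2.89%, 3.51% and 3.94% against 2.41%, 1.97%, 1.67% and 2.06%. Here the groups were also apart, but the enrichment of 0.93 ± 0.37 (adjusted p = 0.0195, edgeR) lay below the lower quartile of all genes.

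HYP2, which encodes the translation factor eIF5A, was an abundant mRNA without a detected enrichment. Its footprint shares were 16.8%, 11.8%, 13.6% and 15.9%, and its polyA RNA shares were 10.8%, 10.5%, 13.8% and 10.6%. The groups overlapped, and the enrichment was 0.39 ± 0.39 (adjusted p = 0.326, edgeR). At the shortest listed length stood RPL41B, a tiny protein of the large subunit, with 77 bases. Nearly all its reads lay in the start region, 99.0% ± 1.29 in footprints and 96.9% ± 2.48 in polyA RNA (mean ± SD, n = 4). Beyond the first 48 bases, 100% of its 28-base stretches occur elsewhere in the genome, so its values are uncertain. The longest gene, REA1, which encodes the dynein-like ATPase of ribosome assembly and is listed at 14732 bases, had footprint shares of 3.43%, 3.59%, 0.585% and 0.508%. Its polyA RNA shares were 0.979%, 0.246%, 0.183% and 0.433%, from 13 start-region reads in all. The BY4741 footprint shares were above those of EY0690, and the enrichment was 2.47 ± 0.64 (adjusted p = 7.81e-04, edgeR).

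Enrichment was larger in longer genes. When the kept genes were divided by listed length into 5 groups of 452 or 453, bounded at 77, 824, 1235, 1718, 2564 and 14732 bases, the median enrichment was 1.30, 1.51, 1.66, 1.95 and 2.45 from shortest to longest. Spearman's correlation of enrichment with length across genes was 0.50 (n = 2263 genes, which share the same 8 libraries). The share itself fell with length in both kinds of library, from 16.03% to 3.50% in footprints and from 6.88% to 0.636% in polyA RNA. To set genes of different length side by side, each share was multiplied by the gene's listed length. This gives the number of evenly covered bases, at the gene's mean read density, that would hold the start-region reads, here called even bases. Start-region reads are part of the share's denominator, so the same excess over the downstream density gives fewer even bases in a short gene. How much of the rise in footprints below comes from this was not tested. Among genes with 1 coding exon, footprints rose from 86.6 even bases in the shortest group through 94.2, 103 and 114 to 130 in the longest. PolyA RNA fell over the same groups, from 38.6 through 33.9, 30.5 and 27.7 to 23.7. The single BY4741 total RNA library changed less, from 39.9 to 33.1 even bases.

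The libraries did not share this trend equally. In the first BY4741 footprint library the even bases rose from 112 in the shortest group to 233 in the longest, and in the second from 60.3 to 80.9. In EY0690 they went from 77.2 to 76.2 in the first library and from 93.6 to 101 in the second. Spearman's correlation of each footprint library's enrichment with length was 0.55 and 0.38 in BY4741 and 0.16 and 0.21 in EY0690. Fitted within strains it was 0.55 in BY4741 and 0.21 in EY0690, and with BY4741 footprints set against BY4741 total RNA it was 0.31. Length also moved with mRNA level, at a correlation of -0.74 across the 2116 genes with 1 coding exon. The level was measured as polyA RNA reads per length and depth, so length is its divisor. A short gene also needs a higher level than a long one to reach the read minimum. The correlation of length with level is therefore partly built in, and how much of it was not tested. Within each of 5 groups of like mRNA level, the correlation of enrichment with length was 0.24 to 0.35. The parts of depth, level and 5′ coverage of the polyA RNA in the trend were not tested apart.

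**Figure D2:**
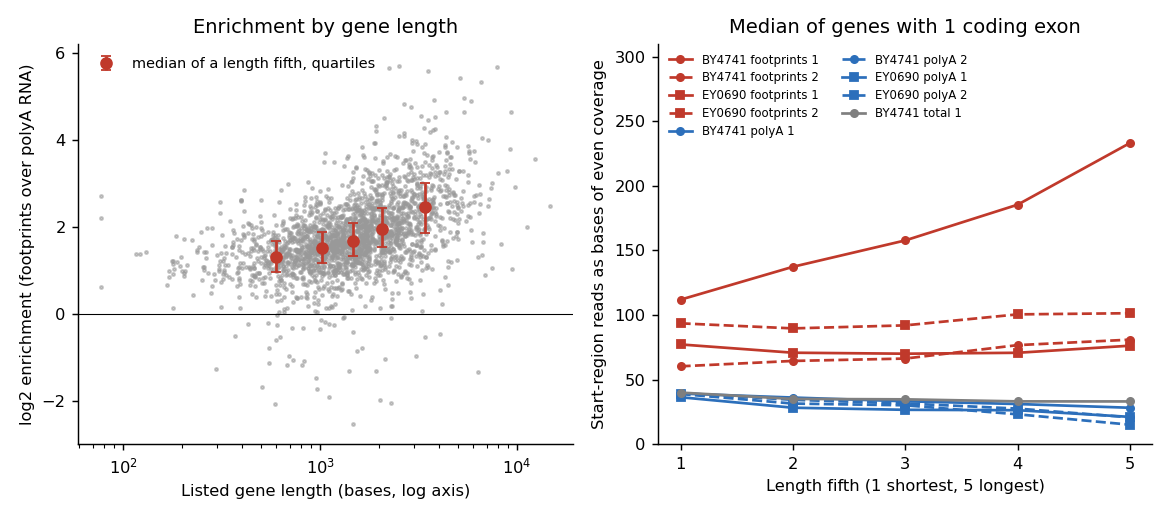
Left: enrichment of each of the 2263 genes (log2 odds ratio, footprints over polyA RNA) against listed length in bases on a log axis, with the median and quartiles of each length group in red (1.30 in the shortest, 2.45 in the longest; a few genes lie outside the range drawn). Right: start-region reads as even bases, median over genes with 1 coding exon, for each library and length group; the first BY4741 footprint library climbs from 112 to 233, while the polyA RNA libraries fall.

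A second comparison asked which genes had more or less start-region enrichment than the typical gene, by scaling the columns of both regions with TMM. In this test 29 genes were higher (1.28%) and 34 were lower (1.5%), at an adjusted p under 0.05 in edgeR's quasi-likelihood test. With the replicate number as a block, 98 genes were higher and 88 lower, and limma on the log2 odds called 0 and 0, so the number of genes that stand apart is poorly determined. Leaving out 1 library at a time gave 0 to 113 higher and 0 to 106 lower, with 0 of both without the second EY0690 footprint library and the most without the second BY4741 footprint library. Under scaling by column totals 225 were higher and 24 lower. Of the 29 higher genes, 13 were in the longest group, and of the 34 lower genes, 24 were in the shortest. Start-region reads in polyA RNA numbered under 20 in all for 13 of the 29 higher genes and for 1 of the 34 lower genes. The same count over all kept genes is not given here, so these numbers have no background to be read against.

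SNF2, the ATPase subunit of the SWI/SNF chromatin remodeller (YOR290C, chromosome XV, 855147 to 860258, minus strand), led the rises named by rule. Its footprint shares were 11.4%, 8.57%, 8.77% and 7.55%, from 164 start-region reads. In polyA RNA the shares were 0, 0.488%, 0 and 0, from 2 start-region reads of 939. At these depths 0 reads still allow shares of up to 1.02%, 2.04% and 3.45% in the 3 libraries without any, counting error only. The groups did not overlap, and the log2 enrichment was 5.41 ± 0.84, or 3.91 ± 0.79 above the typical gene (adjusted p = 0.0145, edgeR). UBR1, the ubiquitin ligase of the N-degron pathway, had 12.5%, 3.62%, 2.66% and 3.68% in footprints. In polyA RNA it had 0, 0.231%, 0 and 0.585%, below every footprint library. It lay 3.38 ± 0.74 above the typical gene on the log2 scale (adjusted p = 0.0249, edgeR). RPO31, the largest subunit of RNA polymerase III, had 8.90%, 2.67%, 1.66% and 3.01% against 0.387%, 0.136%, 0 and 0. It lay 2.94 ± 0.60 above. RET1, the second-largest subunit of the same enzyme, also passed, at 1.52 ± 0.38 above (adjusted p = 0.0387, edgeR). Relative to each library's median its groups overlapped, and the other subunits of the enzyme are not given here. RET1 was not among the rises named by rule.

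The other genes of that group were TMN3, a membrane protein of the EMP70 family, IFH1, a coactivator of ribosomal protein genes, RPM2, a subunit of mitochondrial RNase P, STU2, a microtubule polymerase, and ECM30. They lay 2.48 to 3.02 above the typical gene, with 48 to 67 start-region reads in footprints and 4 to 7 in polyA RNA. Each of the 8 genes rests on 2 to 7 polyA RNA reads at the start, so the size of its enrichment is poorly bounded. Among genes with deeper starts, ZRC1, a vacuolar zinc transporter, had 18.5%, 7.06%, 9.68% and 15.3% in footprints. PolyA RNA held 1.16%, 1.27%, 1.31% and 1.42%, from 120 reads, and it lay 1.70 ± 0.30 above the typical gene (adjusted p = 0.00765, edgeR). CIT2, the peroxisomal citrate synthase, had 20.9%, 17.98%, 10.4% and 17.9% against 3.88%, 3.76%, 1.17% and 2.06%. Its groups were far apart, at 1.29 ± 0.33 above the typical gene (adjusted p = 0.0421, edgeR). ZRC1 and CIT2 were chosen after their values were seen, for their read numbers.

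LAP2, a leucyl aminopeptidase (YNL045W, chromosome XIV, 542963 to 544978, plus strand), headed the falls. Its footprint shares were 1.83%, 1.34%, 0 and 1.19%, and its polyA RNA shares were 3.20%, 6.62%, 7.62% and 1.42%. The groups overlapped through the second EY0690 polyA RNA library, where 2 of 141 reads lay at the start, and LAP2 was 3.70 ± 0.59 below the typical gene, a log2 difference of -3.70 (adjusted p = 0.00484, edgeR). HNT1, a nucleotide hydrolase of the histidine triad family, had 0.115%, 1.35%, 1.29% and 0 in footprints. In polyA RNA it had 2.47%, 2.53%, 5.64% and 3.36%, above every footprint library, with a relative difference of -3.48 ± 0.60 (adjusted p = 0.00757, edgeR). Both have a further in-frame ATG, at codon 40 in LAP2 and codon 15 in HNT1, but this is not particular to the falls. Of the 4 rises with sequences shown, SNF2, UBR1 and TMN3 have one at codons 29, 40 and 13, and IFH1 at codon 179. By codon 60 such an ATG stands in 1029 of the 2116 genes with 1 coding exon (48.6%). STE23, a protease that matures the mating pheromone a-factor, had 0.577%, 0.577%, 0 and 1.02% in footprints, from 10 start-region reads, and 1.04%, 1.45%, 0.541% and 0.658% in polyA RNA, from 19. These shares overlapped, the relative difference was -2.75 ± 0.66, and in absolute terms STE23 did not pass (-0.97 ± 0.81, adjusted p = 0.25, edgeR). The other 5 genes named as falls were ribosomal protein genes, described below with the introns.

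**Figure D3:**
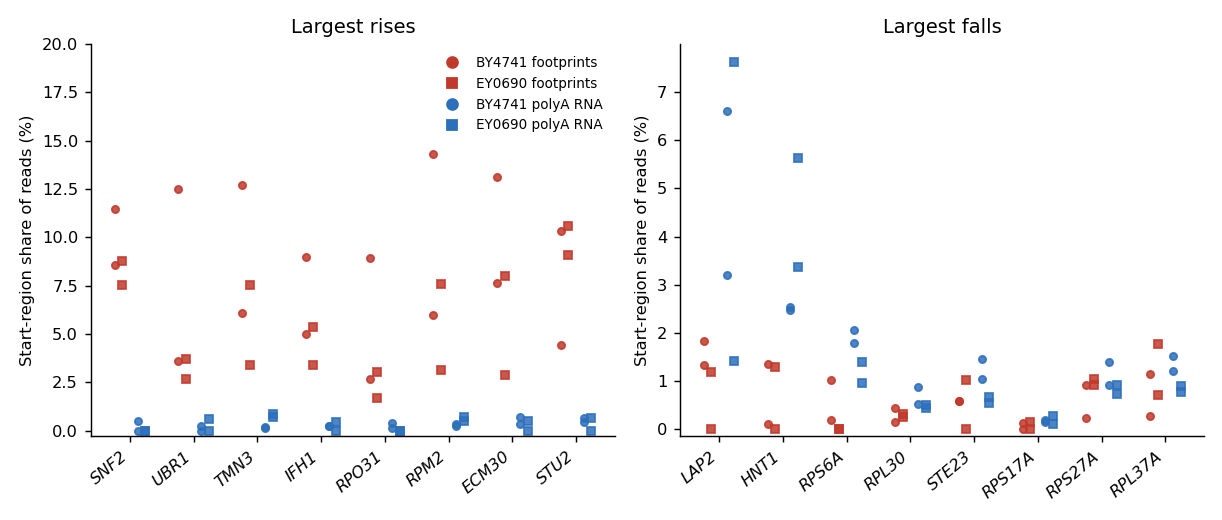
Start-region share in percent (vertical axis) for the 8 largest rises (left) and 8 largest falls (right) relative to the typical gene, 1 point per library. In SNF2 the footprint libraries (red) lie at 7.55% to 11.4% and the polyA RNA libraries (blue) at 0 to 0.488%; in LAP2 the polyA RNA reaches 7.62% and the footprints 1.83%.

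The cytosolic ribosomal protein genes divided by the place of their intron. Of 138 in the table, 136 were kept, and 39 of these have a first coding exon of 12 bases or fewer, so that the stretch after the start codon on the chromosome is mostly intron. That limit was chosen after the values were seen. In these 39 the median enrichment was 0.19, and 14 rose and 5 fell. The median even bases were 6.05 in footprints and 5.88 in polyA RNA, so at the median both kinds of library held almost no start reads. In the 50 genes with an intron further in, the median enrichment was 1.45, with 44 rises and 0 falls. In the 47 with 1 coding exon it was 1.36, with 37 rises and 0 falls. Over all 53 kept genes with such a short first exon, ribosomal or not, the median was 0.38, with quartiles of -0.34 and 1.93. In 54 genes whose first coding exon has 13 to 48 bases it was 1.72, with quartiles of 1.38 and 1.99, so the ranges overlapped.

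RPS6A, a protein of the small subunit whose first coding exon has 6 bases, had footprint shares of 0.198%, 1.03%, 0 and 0. Outside its start, 84.0% of its 28-base stretches recur elsewhere in the genome, so its values are uncertain. Its polyA RNA shares were 2.06%, 1.80%, 0.966% and 1.40%. The second BY4741 footprint library just overlapped the first EY0690 polyA RNA library, and the enrichment was -1.91 ± 0.62 (adjusted p = 0.00502, edgeR). RPL30, a protein of the large subunit with a first coding exon of 3 bases, had 0.139%, 0.429%, 0.324% and 0.259% in footprints. Its polyA RNA shares were 0.526%, 0.884%, 0.491% and 0.431%, all above the footprints, though the nearest values differ by less than counting error. RPL30 had an enrichment of -1.13 ± 0.49 (adjusted p = 0.0311, edgeR). RPS17A, RPS27A and RPL37A, with first exons of 3 to 7 bases, completed the named falls, at -2.68, -2.28 and -2.23 relative to the typical gene. In absolute terms these 3 did not pass (adjusted p = 0.075, 0.271 and 0.312, edgeR). The 8 genes with lower odds in footprints were ERG13, HNT1, LAP2 and 5 ribosomal protein genes with first exons of 2 to 6 bases, RPS6A, RPL13A, RPL19B, RPL43A and RPL30. With genes of 1 coding exon alone, 2 genes had lower odds, and relative to the typical gene 52 were higher and 22 lower.

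Not every gene with an early intron lacked start reads. RPL22B and RPL21A, proteins of the large subunit with first exons of 12 and 11 bases, passed as higher than the typical gene, at 1.31 and 1.38. Their shares did not overlap, but relative to each library's median the groups did. Outside the start of RPL21A, 26.5% of the 28-base stretches recur elsewhere in the genome. RPS4A and RPS4B, a pair of nearly identical small-subunit genes, passed as well, but their first exons of 14 bases lie outside the limit of 12. RPS4B had 27.3%, 10.1%, 29.3% and 50.6% in footprints and 1.65%, 1.72%, 5.37% and 3.54% in polyA RNA. These shares did not overlap, but relative to each library's median the groups did, and RPS4B lay 2.05 ± 0.32 above the typical gene (adjusted p = 0.00484, edgeR). Outside the start, 67.1% of their 28-base stretches are shared with another place in the genome, and how the authors' counting treated such reads is not given in the sources used here, so the pair is uncertain.

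Among genes with 1 coding exon, 34 had start-region reads worth under 3 even bases in polyA RNA, a limit set after the values were seen. They fell into different kinds by their footprints, a description with no test. In 18 of them the footprints were also under 10 even bases. A further in-frame ATG by codon 60 stands in 17 of these 18, compared with 8 of the other 16 and with 1029 of all 2116 such genes (48.6%). Among the 17 are ISW1, VPS70, RSM23 and RSE1, where it stands as early as codons 4, 3, 4 and 7. RSM23 and GRX3, also of the 18, are listed at 1466 and 857 bases, against 1353 and 753 coding bases in R64. Where the counted start region of those genes lies is therefore uncertain. ERG13, the HMG-CoA synthase of sterol synthesis, had 1 start-region read of 9625 in footprints and 7 of 8306 in polyA RNA. All 8 of these reads came from the first BY4741 library of each kind, and its call as lower in footprints (adjusted p = 0.048, edgeR) rests on them. PRT1, a subunit of initiation factor eIF3, had 2 of 10101 in footprints and 8 of 9457 in polyA RNA. MRP13, a mitochondrial ribosomal protein, had 0 of 740 and 0 of 1355. These mRNAs were well covered further on, and the few start reads were missing from RNA as from footprints. ISC1, UTP4, MOG1, MET7, TRM1 and MAK11 are further examples, each with at most 2 start-region reads in footprints.

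The other 16 genes had 4 to 80 start-region reads in footprints where the polyA RNA had 0 to 3. All were picked for scant start-region reads in polyA RNA, so a high ratio of footprints to RNA is partly built in. SEC3, a subunit of the exocyst, had 5.46%, 3.41%, 0 and 5.68% in footprints and no start-region read among 1588 in polyA RNA. With a floor of 3 polyA RNA reads over the group, its odds pooled over libraries were 21.02-fold higher in footprints. That ratio leaves out the counting error of the footprints and the spread between libraries. The SEC3 shares overlapped through the first EY0690 footprint library, at 0. SEC16, a scaffold of vesicle budding from the endoplasmic reticulum, had 2.17%, 1.05%, 2.26% and 2.12% in footprints. It had no start-region read among 1082 in polyA RNA, and its pooled odds with the same floor were 6.32-fold higher in footprints. All of its footprint libraries lay above its polyA RNA libraries. USO1, IRA1 and NCR1 are of the same kind, with 47, 27 and 24 start-region reads in footprints and 1, 1 and 0 in polyA RNA.

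**Figure D4:**
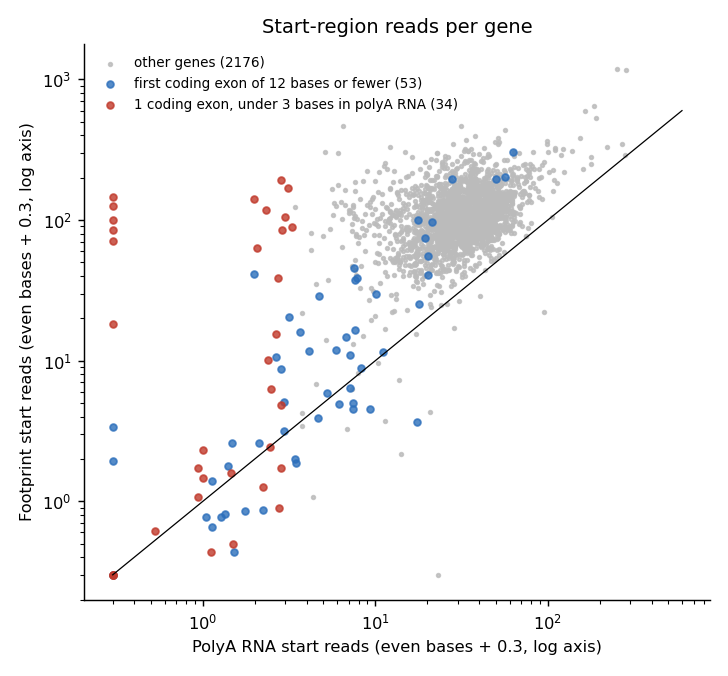
Start-region reads of each gene as even bases, in footprints (vertical) against polyA RNA (horizontal), both with 0.3 added on log axes; the line marks equal values. Genes with a first coding exon of 12 bases or fewer (blue, 53) have medians of 8.47 even bases in footprints and 4.98 in polyA RNA. Of these 53, 21 rose. The 34 genes with under 3 even bases in polyA RNA (red) split into a group near the line and a group high above it.

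By function, the lists were read against the median of 1.70 and the 81% of all kept genes that rose. Of 57 small-subunit ribosomal proteins 38 rose and 1 fell (median 1.22), and of 79 in the large subunit 57 rose and 4 fell (1.38), the early introns included. Mitochondrial ribosomal proteins had 11 rises of 23 kept from 70 listed, with a median of 1.48. Against the medians of their own length groups they differed by 0.07 at the median, and 12 of the 23 were above. Of 28 initiation factors, 26 rose, with a median of 1.61, and so did 13 of 14 elongation and termination factors, at 1.82. The 4 largest values of the latter belong to EFT1 and EFT2 (elongation factor eEF2) and to TEF1 and NEW1, at 3.15, 2.85, 2.67 and 2.64. EFT1 and EFT2 are copies of each other, and so are TEF1 and TEF2: all their 28-base stretches at the start and over 95% of the rest recur elsewhere, so these values are uncertain. Ribosome biogenesis factors had 42 rises of 47 and a median of 1.93.

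Transfer-RNA synthetases, which load amino acids onto tRNA, rose in 16 of 19, but 4 of the 19 were above the median of their own length group, and the list's median difference from it was -0.38. HTS1 and VAS1, the histidyl and valyl enzymes, are known to make a mitochondrial and a cytosolic form from separate start codons. Whether this bears on their start-region reads was not tested. HTS1 had shares of 0.303%, 0.422%, 0 and 0 in footprints and 0.669%, 0.482%, 0 and 0.442% in polyA RNA. Start reads of HTS1 were few in both kinds, and it lay -2.44 ± 0.56 from the typical gene (adjusted p = 0.0283, edgeR). VAS1 had 0.1198% ± 0.0944 in footprints and 0.104% ± 0.0756 in polyA RNA (mean ± SD, n = 4), with an enrichment of 0.44 ± 0.64. At the other end of the list ALA1, the alanyl enzyme, had 5.87% ± 2.57 against 0.966% ± 0.352, an enrichment of 2.48 ± 0.47.

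Histones, the proteins that package DNA, lay above most genes of their length. All 10 rose, their median enrichment was 2.34, and 9 of the 10 were above their own length group, by a median of 1.04. HHT1, a histone H3 gene, had 39.1%, 25.5%, 52.8% and 52.9% in footprints. In polyA RNA they were 11.4%, 10.7%, 14.7% and 12.7%. Both EY0690 footprint libraries held more reads of this mRNA in the start region than downstream, and the groups did not overlap. HTA1 and HTA2 (H2A) had enrichments of 2.62 ± 0.43 and 2.61 ± 0.44, and HTB1 (H2B) 2.58 ± 0.43. Linker histone HHO1 was the lowest, at 1.12 ± 0.54 (adjusted p = 0.049, edgeR). The H2A copies share 100% of their 28-base stretches at the start and the H4 copies HHF1 and HHF2 38.1%, while HHT1, HTB1, HTB2 and HTZ1 share none there. Beyond the start, 30.4% of the 28-base stretches of HHT1 recur elsewhere in the genome, so its values are uncertain. HTZ1, the variant H2A.Z, shares none anywhere and had 2.02 ± 0.60. No histone passed relative to the typical gene over all genes.

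Nuclear pore proteins, many of them long, had 25 rises of 29, close to the 87.0% of the longest group. Their median was 2.37, and 18 of 29 were above their length group, with a median difference of 0.49 over the list. NUP192 and NUP84, of the inner and outer rings, had 5.34% ± 2.29 and 7.76% ± 2.35 in footprints. In polyA RNA NUP192 had 0.498% ± 0.119 and NUP84 0.910% ± 0.428, so their enrichments were 3.29 ± 0.61 and 3.02 ± 0.63. The list held 22.8 even bases in polyA RNA and 123.3 in footprints at the median, beside 23.2 and 129 in the longest group of genes and 27.7 and 115 in the group before it. RNA polymerase II subunits had 8 rises of 8 and a median of 1.93, led by RPB2 at 2.90 ± 0.53 and RPO21 at 2.36 ± 0.52, its largest subunits.

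Cell wall and secreted proteins were at the low end. Of 22, 19 rose, but the median was 1.18, and 4 were above their length group, with a median difference of -0.36. The wall mannoproteins CWP1 and CWP2 had enrichments of 0.94 ± 0.44 and 0.48 ± 0.38, the second not past the threshold (adjusted p = 0.23, edgeR), and the glucanase BGL2 0.76 ± 0.41. CRH1, a cross-linking enzyme of the wall, was the highest at 2.06 ± 0.46. Respiratory subunits (20 of 30 rose, median 1.21), proteins of endoplasmic reticulum translocation and folding (13 of 19, 1.37) and enzymes of the tricarboxylic acid cycle (9 of 15, 1.39) had medians below 1.70 as well. Against their own length groups these 3 lists differed by -0.13, -0.14 and -0.12, less than the cell wall list, and among the shortest genes, to which respiratory subunits mostly belong, 70.1% rose. In the cycle, IDH2, a subunit of isocitrate dehydrogenase, had 2.26% ± 2.18 in footprints and 2.32% ± 1.18 in polyA RNA. Its partner subunit IDH1 had 6.27% ± 3.05 against 2.52% ± 1.34, an enrichment of 1.39 ± 0.49.

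In the remaining lists, all 16 glycolytic and fermentation genes rose, with a median of 1.36 (-0.09 from their length group), from 1.02 ± 0.40 in PGI1 to 2.83 ± 0.38 in TDH3, whose start is shared in full with another place in the genome. Plasma membrane pumps and transporters had 23 rises of 27 and a median of 1.83, with a wide range from GAP1 at 0.32 ± 0.50 to NHA1 at 3.75 ± 0.72. Rises also numbered 41 of 45 in amino acid synthesis (median 1.54), 28 of 32 in the proteasome (1.61), 21 of 23 in ergosterol synthesis (1.54), 20 of 23 among cytosolic chaperones (1.53), 13 of 15 in the vacuolar proton pump (1.48) and 16 of 18 in the cytoskeleton (1.73). GCN4, the regulator of amino acid synthesis whose translation is held back by upstream reading frames, had 10.5%, 5.75%, 2.96% and 6.54% in footprints. Its polyA RNA shares were 5.53%, 6.12%, 3.41% and 3.60%, so the groups overlapped. GCN4 lay -1.28 ± 0.31 from the typical gene (adjusted p = 0.0318, edgeR).

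**Figure D5:**
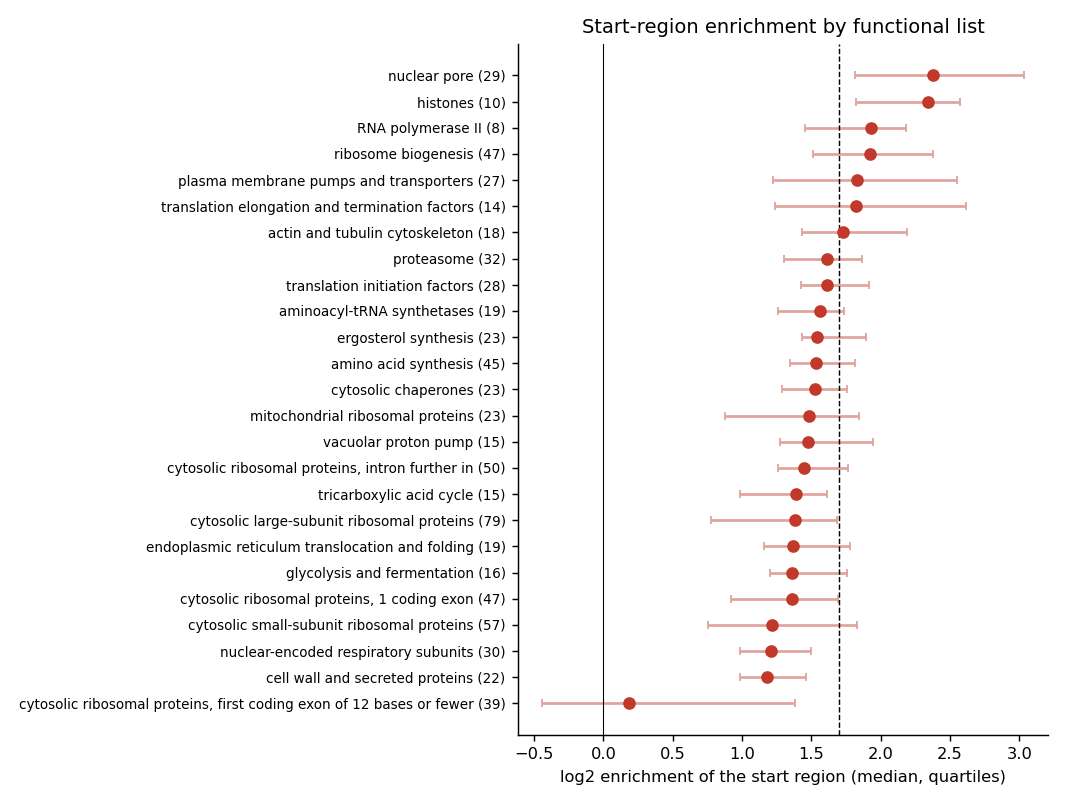
Median log2 enrichment of each functional list (points, with quartiles as bars; the number of kept genes stands in brackets), with the median of all 2263 genes as the dashed line at 1.70. Nuclear pore proteins (2.37) and histones (2.34) lie highest, and ribosomal protein genes with a first coding exon of 12 bases or fewer lowest (0.19).

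Among the 2116 genes with 1 coding exon, enrichment differed little by the third base before the start, GC content or next in-frame ATG. By the third base before the start codon the median enrichment was 1.68 with A (1428 genes), 1.75 with G (372), 1.87 with C (152) and 1.90 with T (164). The median listed length rose in the same order, from 1444 to 2020 bases, and the medians relative to genes of like length were within 0.08 of 0 on the log2 scale. By GC content of the first 60 coding bases, the groups ran from 1.65 to 1.82. Genes with the next in-frame ATG at codons 2 to 20, at codons 21 to 60 and later or never had 1.73, 1.67 and 1.75. Genes whose start recurs in the genome ran higher. In the 19 with over 50% of their 28-base stretches at the start shared, the median was 2.28, and all 19 rose. Relative to genes of like length their median difference was 0.86. How the authors' counting treated such reads is not given, so these values are uncertain.

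The strains were compared gene by gene in the same model. For 0 of 2263 genes (0%) did the enrichment relative to the typical gene differ between EY0690 and BY4741 at an adjusted p under 0.05 in edgeR's quasi-likelihood test, with 152 at an unadjusted p under 0.05. DESeq2 and limma also called 0, while the replicate block and the fit without the BY4741 libraries numbered 2 each called 2. With 2 libraries of each kind per strain, and few start reads in EY0690, these counts do not show that the strains are alike.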

How the data were processed

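The authors' deposited table lists, for each gene, a length and read counts for the initiation region (here the start region) and for the sequence downstream, per the file headers. Reads were aligned with Bowtie 0.12.8 to build R64, per the submitters' processing notes; neither the bounds of the start region nor the counting rules are stated in the sources used here. The listed length, in the "other" unit of bases as deposited, equals the whole gene span minus 1, introns included, for 5090 of 5123 genes with 1 coding exon and 245 of 256 with more. Of the table's value columns, 54 were not used. Coordinates, exons and sequences came from RefSeq R64 by systematic name (5379 of 5381 matched, and all kept genes); 28-base stretches were searched in the genome on both strands.

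Start and downstream counts of each library entered edgeR 4.0.16 (R 4.3.3) as paired columns, with terms for library, region, region by strain and region by assay. Without scaling factors the region by assay term is the enrichment; with TMM factors on all columns it is relative to the typical gene. P-values were adjusted by Benjamini-Hochberg over the 2263 kept genes, with a threshold of 0.05. Shares are percentages computed here from the counts. Limma 3.58.1 used log2 odds with 0.5 added to both counts, and DESeq2 1.42.0 was an alternative. The scripts were tested on simulated data. The rule named the 8 largest relative rises and falls whose centred log2 odds separate all footprint from all polyA RNA libraries, the most abundant member of each list, and the shortest and longest gene. The members and lists were chosen with earlier results of these data known. Same-numbered footprint and polyA RNA libraries deviated together (correlation 0.174 in BY4741 and 0.118 in EY0690, over 2263 genes), a pairing read from the data and not from the labels; blocked counts stand beside the results they move. Intervals and floors of 3 reads cover counting error only.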

Additional observations from a re-analysis of the deposited data

Results flagged for a closer look

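Among 82 groups of 4 libraries (the shares of the named genes and the median share, in footprints and in polyA RNA), 6 had a library far from the other 3 by Dixon's criterion, where chance alone flags about 1 group in 20. The first BY4741 footprint library was the highest for UBR1 (12.5%, the others 2.66% to 3.68%), SEC13 (18.1%, the others 7.87% to 9.13%) and ERG2 (35.5%, the others 14.9% to 17.7%). The same library was the lowest for RPS27A, at 0.228% against 0.908% to 1.03%. In polyA RNA, the first EY0690 library was the highest for HYP2, at 13.8% against 10.5% to 10.8%. For SNF2 the second BY4741 polyA RNA library, at 0.488%, was the only one with start-region reads, 2 of 410; with the other 3 at 0, any read in a single library meets the criterion.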

How the results depend on the processing

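The share difference, the median enrichment and the count of enriched genes kept their direction under every alternative run, and of 358 recomputed relative values of the 17 called named genes, 209 kept their call, 149 lost it and 0 reversed. The causes of the moves below were not tested. Leaving out each library in turn gave 1264 to 2066 genes higher, 3 to 16 lower, 0 to 113 and 0 to 106 relative to the typical gene, 0 to 1 for strain, a share difference of 3.42 to 5.47 points and a length correlation of 0.40 to 0.53. The replicate block gave 98 and 88 relative calls, 2 for strain, and 1929 higher and 8 lower without scaling. With no minimum beyond 1 read, 3276 were higher, and 59 and 107 were called relative to the typical gene. With 200 reads the values were 540 and 2, then 16 and 6. Requiring 10 start-region reads in polyA RNA left 589 and 1, with 7 relatively lower and a correlation of 0.32. These changes of the minimum also change how many genes are tested, so their counts cannot be set against the 1834 of the main run. The median enrichment was 1.76 with no minimum beyond 1 read, 1.51 with 200 reads and 1.41 with 10 start-region reads. BY4741 alone gave 513 and 0, then 0 and 0, and EY0690 alone 889 and 2, then 9 and 1, with a correlation of 0.21; the share differences of 5.80 and 3.84 cannot pass with 2 libraries against 2. Without the BY4741 libraries numbered 2, the difference was 5.49 (exact p = 0.1, the smallest possible) and strain calls 2, and without those numbered 1 (added later) 11 were relatively lower. Genes with 1 coding exon (added later) gave 2 lower, then 52 and 22. DESeq2 gave 4 lower. Limma gave 3 lower and 0 and 0 relative calls, where edgeR had 259 and 209 at an unadjusted p under 0.05. No strain term gave 4 lower, then 1 and 2. Column totals gave 225 relatively higher. Against BY4741 total RNA (added later) the length correlation was 0.31. Depth also limits single genes, with 5 to 24 polyA RNA start reads per gene and library at the median.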
